A study of Mus musculus with 17 samples.

Results

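The most abundant nuclear-encoded noncoding transcripts of the neonatal mouse heart ventricle were 64 rows of the 23940 in each deposited table. They were chosen by level: a mean of at least 20 FPKM (fragments per kilobase of length, scaled to the depth of the library) over all 17 libraries. The rule left out 6 mitochondrial rows, 1 row of a chromosome 7 stretch and 1 further named row that reached this mean, and none of the rows of 3 other stretches it bars did so. The levels that chose the rows are therefore a description. The age tests use the same 17 values as the rule, 11 of them from the later ages, so a row high only at those ages could enter and a row high only at P0 was less likely to. Ranks 23, 26, 38, 52 and 53, with P0 means of 8.31 to 14.3 FPKM, reached the threshold only through later ages, and their rises are not independent of the choice. Members that fell to P7 levels under 20 FPKM, such as ranks 28 and 57, entered through earlier ages. Their falls are not independent of the choice either. Of the 64 members, 59 carried a position, on 15 chromosomes, while 5 carried an ID alone, so that the exclusions by position could not be checked for those 5.

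Total RNA was sequenced from hearts of male C57Bl/6 mice, with the left (LV) and the right (RV) ventricle kept apart. The untreated animals were at postnatal day 0 (P0), 3 (P3) or 7 (P7). There were 3 libraries in 5 of the groups and 2 in the RV group of P7. The labels call the samples biological replicates and do not say whether the LV and the RV came from the same animals or whether animals were pooled. The depth, read from the size of the steps in the values, was 13.8 to 20.5 M fragments per library. The tables hold noncoding rows alone, so markers of heart cell types were not checked here, and in such bulk tissue fewer cells of a type and less RNA per cell cannot be told apart.

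Long noncoding RNAs are transcripts that are not translated into a known protein. Some are processed from or antisense to coding genes, some are unspliced or partly spliced copies of a coding transcript, and others stand alone. In the heart the weeks around birth bring a switch of fuel from glucose to fatty acids, the end of most heart muscle cell division and a rise in the workload of the LV over that of the RV. The 45S row on chromosome 17 is of another kind: 45S is the nuclear precursor from which ribosomal RNAs are cut.

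The libraries fell into 2 sets by a mitochondrial row that is not a member, at 7.93 to 25.8 FPKM in 11 libraries (the low set) and 132 to 247 FPKM in 6 (the high set). The high set held replicate 3 of both ventricles at P0 and replicates 1 and 3 of both at P3, and no P7 library. The mitochondrial 16S rRNA row alone took 48.3% to 66.7% of the FPKM summed over the noncoding rows. This is a share of values scaled to length and not a share of the reads. Apart from this, the median log2 change over all 11079 rows tested was -0.32 in the LV and -0.27 in the RV for P7 against P0. The cause of this shift was not tested. Changes called lower from P0 to P7 are therefore set beside their value, or the loss of their call, after each library was scaled to an equal median, named median scaling below.

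The members made up 0.268% of the rows the rule could have taken and held 26.7% to 35.8% of their summed FPKM. This share was 27.3% ± 1.02 (SD, n = 3) in the LV at P0, 31.7% ± 2.37 (n = 3) at P3 and 33.9% ± 0.644 (n = 3) at P7. In the RV it was 28.1% ± 0.475 (n = 3), 31.8% ± 1.53 (n = 3) and 34.6% ± 1.68 (n = 2). The P0 and P7 libraries did not overlap in either ventricle, a direction that the rule itself favours. The summed FPKM of the members was 3004 to 3564 over the libraries. Its group means at P0, P3 and P7 were 3128.7, 3454.6 and 3326.3 in the LV and 3083.5, 3480.9 and 3276.9 in the RV. The sum of all rows the rule could have taken, members included, was 8731 to 12069 over the libraries. Its group means were 11455.5, 10964.4 and 9798.3 in the LV and 10986.2, 10969.1 and 9486.3 in the RV.

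Abundance was steep at the top. A total of 9 members averaged at least 100 FPKM, 7 lay between 50 and 100, and 48 lay between 20 and 50; the 10 highest held 47.2% of the members' total. In any library 50 to 60 of the members were among its 64 highest eligible rows. At the other end, 34 members reached 20 FPKM in every library, 43 had all 6 group means at 20 or more, and 21 had at least 1 group mean under it. Just inside the threshold stood the rank 62 row (20.8 FPKM), the rank 63 row (20.6) and the rank 64 row (20.5), and just outside it rows of chromosomes 6 (19.8), 7 (19.8) and 18 (19.6).

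**Figure D1:**
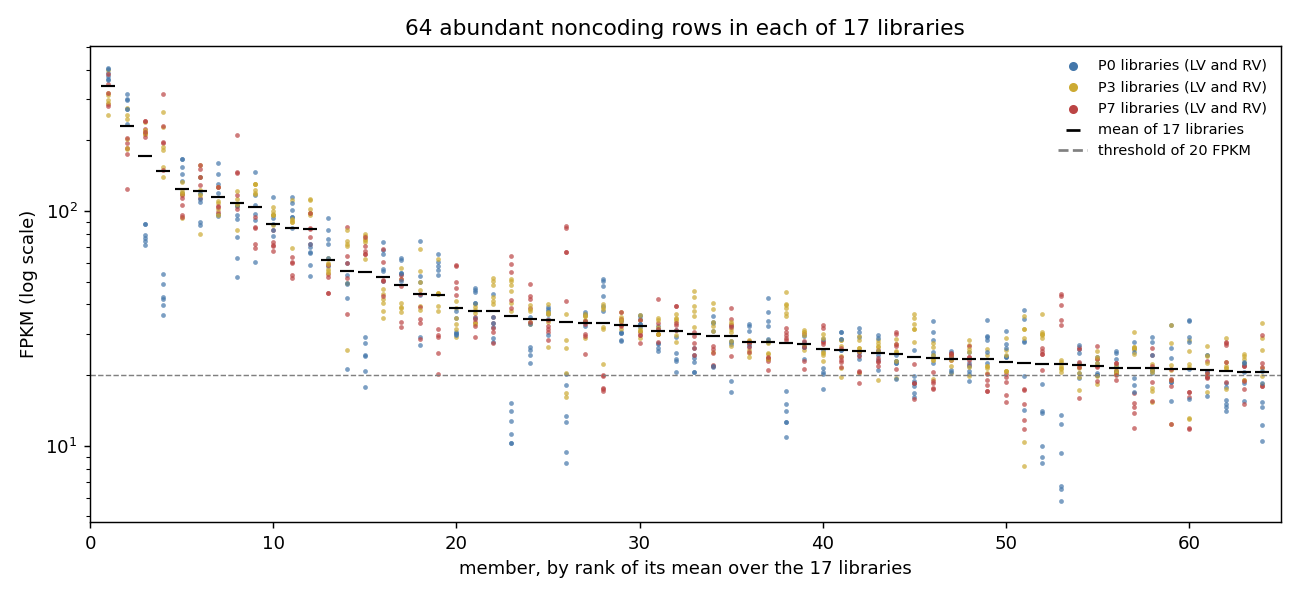
FPKM (log scale) of each member in each of the 17 libraries, with members in the order of their mean over the libraries, points coloured by age, bars at the mean and a dashed line at 20 FPKM. The P0 points lie below all others of the same row for several members, among them ranks 3, 4, 15, 23, 38, 52 and 53. In all, 34 members have every point at 20 FPKM or more.

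The tables do not pair IDs with gene names, so rows are called here by rank and by position as the files give it, which fits the assembly mm9. A total of 9 members had exactly the span of a gene or transcript of the GENCODE release M21 annotation on the same chromosome, at an offset shared with at least 3 other genes within 3 Mb. This is a match of length and place, chosen after the data were seen, and over all positioned nuclear rows it succeeded for 18.9%. Of the 9, 5 matched a transcript of a protein-coding gene: Mrpl42 (rank 5, mitochondrial ribosomal protein, here a protein-coding transcript), Iqsec2 (rank 16, a guanine nucleotide exchange factor of synapses), Trdn (rank 22, triadin of the calcium release complex of heart muscle), Slc25a3 (rank 41, the mitochondrial phosphate carrier) and Itga6 (rank 54, an integrin of the laminin receptor). The other 4 matched noncoding genes: Gm49708 (rank 15), the antisense gene Atcayos (rank 35), Gm43197 (rank 38) and Gm37829 (rank 47). Libraries were stranded per the labels, but how the authors counted strand is not given in the sources used here, so reads of the coding transcript and of the row cannot be told apart.

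Gm37829, an unspliced gene model of unknown function, was the steadiest member over the libraries. The last 120 of the 2213 bases of its GENCODE M21 transcript are shown as the end of the transcript behind the steadiest row, with the letters of the AATAAA polyadenylation motif in capitals:

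Gm37829 3′ end: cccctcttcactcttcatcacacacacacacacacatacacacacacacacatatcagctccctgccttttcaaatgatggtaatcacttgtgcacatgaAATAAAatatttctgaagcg

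The motif occurred 1 time in this stretch, 14 bases before the end, on the transcript's strand. The same letters were found in the last 120 bases of 26.6% of the 3285 transcripts of this gene class, so holding the motif there is common in the class.

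Rank 1 was a 217-base row on the X chromosome (chrX:148192453-148192669), first or second among eligible rows in every library. In the LV it measured 376, 385 and 364 FPKM at P0, 256, 397 and 318 at P3, and 348, 382 and 285 at P7. In the RV the values were 401, 408 and 363, then 312, 298 and 288, then 280.4 and 318. All P3 and P7 libraries of the RV lay below its P0 libraries, but the log2 change of -0.39 for P7 against P0 (95% interval -0.67 to -0.10) did not pass the test (limma adjusted p = 0.118) and was -0.11 with median scaling. The LV groups overlapped.

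The rank 7 row, NONMMUT026971, was level in all 6 groups. LV libraries stood at 96.8, 119 and 131 FPKM at P0, 96.7, 110.1 and 109 at P3, and 126, 98.5 and 105 at P7. RV libraries stood at 95.1, 144 and 159.5, then 102, 127 and 95.8, then 104 and 126. All groups overlapped with one another.

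Rank 6, at chr11:94812954-94814354, was likewise called in no comparison of the values as deposited. It measured 139.7, 89.9 and 109 FPKM in the LV at P0, 122, 80.1 and 118 at P3, and 129, 113 and 151 at P7. In the RV it measured 119, 87.5 and 112, then 156, 117 and 139, then 139.8 and 156. Replicate 2 was the lowest library of every group of 3 for this row. With median scaling its P7 against P0 changes were called, at 0.55 in the LV (limma adjusted p = 0.0187) and 0.76 in the RV (adjusted p = 0.0065).

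The coefficient of variation (SD over mean, 17 libraries) ran from 6.59% to 78.1% among members, with a median of 20.7%. It was under 10% for 5 members and under 20% for 31. The Gm37829 row, chr7:88675195-88677407, had the lowest. Its LV libraries gave 24.8, 25.4 and 23.8 FPKM at P0, 24.4, 20.3 and 23.6 at P3, and 23.9, 23.3 and 24.6 at P7. Its RV libraries gave 20.6, 23.7 and 21.0, then 24.3, 21.9 and 23.1, then 24.4 and 24.9. The P7 against P0 change was -0.04 in the LV (95% interval -0.27 to 0.18) and 0.18 in the RV (-0.07 to 0.43) on the log2 scale. With median scaling the RV change was 0.45 and called (limma adjusted p = 0.0362), so its steadiness holds for the values as deposited.

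Next came the rank 56 row, chr6:83291147-83293685, with a coefficient of 7.94%. It stood at 25.3, 21.9 and 23.4 FPKM in the LV at P0, 22.0, 20.9 and 20.6 at P3, and 22.4, 20.9 and 22.6 at P7. RV values were 24.8, 20.2 and 20.6, then 20.3, 20.9 and 20.1, then 19.97 and 19.1. Both RV libraries at P7 were below all other libraries of that ventricle.

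The rank 30 row, chr3:144349876-144352237, followed with 8.38%. LV libraries gave 35.7, 36.1 and 34.8 FPKM at P0, 36.0, 28.8 and 34.3 at P3, and 34.2, 30.4 and 29.7 at P7. RV libraries gave 33.1, 33.1 and 32.0, then 30.7, 30.8 and 31.4, then 27.3 and 29.6. Its RV groups did not overlap and were lower at each later age, with a P7 against P0 change of -0.20 (95% interval -0.45 to 0.04) that did not pass the test (limma adjusted p = 0.354). Its direction depended on the scaling, with 0.07 after median scaling.

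Changes with age were tested with limma on log2(FPKM + 0.1) over all 11079 rows that passed a low-value filter, and a row was called at a Benjamini-Hochberg adjusted p under 0.05. All 64 members passed the filter. Of the 64, 34 were called in at least 1 of the 6 age comparisons within a ventricle and 30 in none. The same count was not made over all rows, so it describes the members and does not set them apart. Members are measured more precisely than most rows, with a median SE of 0.15 in LV comparisons against 0.37 over all rows, and so a call is easier to reach. Over 88 rows of 10 to 20 FPKM, 39.8% were called for P7 against P0 in the LV, beside 40.6% of the members, and 28.4% beside 28.1% in the RV.

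For P7 against P0 in the LV, 26 members were called, 14 higher and 12 lower, where 11.2% of all rows were called (2.6% higher and 8.64% lower). Of the band of 10 to 20 FPKM, 11.4% were called higher and 28.4% lower. With median scaling the members split into 23 higher and 2 lower, beside 509 higher and 399 lower of all rows. For the RV, 18 were called, 9 in each direction, where 5.55% of all rows were called (1.83% higher and 3.72% lower), and median scaling gave 19 higher and 3 lower, beside 332 and 224 of all rows. In the band, 5.68% were called higher and 22.7% lower in the RV. A total of 8 members rose and 5 fell in both ventricles, none was called in opposite directions, and 30 of the 31 called in either ventricle had the same sign in both. Calls in both ventricles and equal signs were not counted over all rows, so this is not shown to be particular to the members. The median log2 change of the 64 was -0.04 in the LV and -0.11 in the RV.

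**Figure D2:**
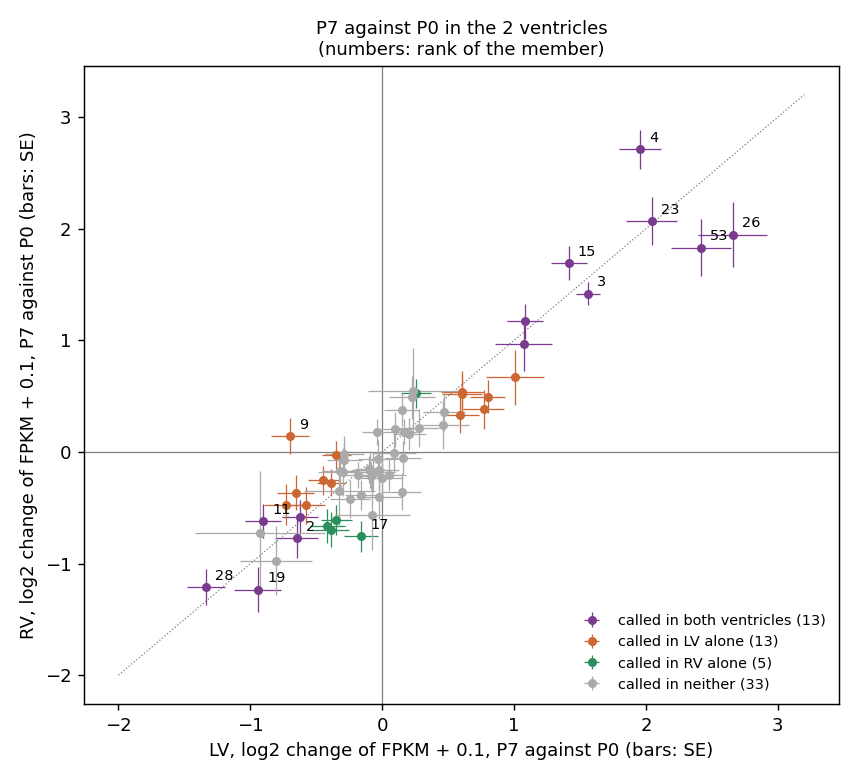
Log2 change of FPKM + 0.1 for P7 against P0 of each member in the LV (horizontal) and the RV (vertical), with SE as bars, colour by the ventricles in which the change was called, and a dotted line where both are equal. The 8 rises called in both ventricles run from 0.97 to 2.71, and rank 9 stands apart with a fall in the LV of 0.70 and a value of 0.14 in the RV.

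The third most abundant row, chr16:90341906-90350117, rose in both ventricles and was in its P7 range by P3. It measured 76.7, 74.5 and 88.4 FPKM in the LV at P0, 239.8, 216 and 212 at P3, and 241, 223 and 242 at P7. RV libraries gave 79.3, 71.3 and 88.1, then 213, 216 and 222, then 217 and 207. The P0 libraries lay far below all others, and the P3 and P7 libraries overlapped. P7 was 2.95-fold P0 in the LV (log2 change 1.56, SE 0.09, limma adjusted p = 1.6e-09) and 2.66-fold in the RV (1.42, SE 0.10, adjusted p = 6.2e-08).

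Inside this span lies the rank 15 row, chr16:90348970-90349887, which has the span of a Gm49708 transcript, so reads could count for both rows. It gave 29.1, 27.4 and 20.7 FPKM in the LV at P0, 79.4, 78.1 and 74.0 at P3, and 67.7, 70.8 and 65.8 at P7. In the RV it gave 24.2, 24.3 and 17.8, then 75.8, 62.2 and 75.2, then 65.4 and 77.3. Again every P0 library was below every later one. The log2 changes for P7 against P0 were 1.41 (SE 0.14, limma adjusted p = 1.7e-06) in the LV and 1.69 (SE 0.15, adjusted p = 1.6e-06) in the RV.

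NONMMUT062940, the rank 4 row and 1 of the 5 without a position, had the largest rise in the RV. The LV libraries stood at 54.0, 42.1 and 43.0 FPKM at P0, 139.9, 181 and 155 at P3, and 196, 149.8 and 197 at P7. The RV libraries stood at 49.1, 35.9 and 39.6, then 187, 265 and 229, then 316 and 231. At P3 and at P7 all RV libraries were above all LV libraries, while at P0 the ventricles overlapped. P7 was 3.90-fold P0 in the LV (log2 change 1.96, SE 0.16, limma adjusted p = 1.5e-07) and 6.58-fold in the RV (2.71, SE 0.18, adjusted p = 2.4e-08). The RV change exceeded the LV change by 0.75 (95% interval 0.25 to 1.25), which did not pass (limma adjusted p = 1).

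The rank 23 row, chr15:100102805-100103014, is 210 bases long and rests on the fewest fragments of the positioned members, an implied 33 in its lowest library. Its LV values were 15.2, 10.3 and 11.2 FPKM at P0, 37.4, 45.8 and 48.2 at P3, and 54.8, 59.5 and 38.7 at P7. Its RV values were 12.8, 10.3 and 14.04, then 50.2, 51.5 and 40.5, then 41.6 and 64.3. P0 libraries were low throughout, and P3 and P7 overlapped in both ventricles. The log2 changes for P7 against P0 were 2.05 (SE 0.19, limma adjusted p = 1.2e-06) and 2.07 (SE 0.22, adjusted p = 8.1e-06).

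Rank 26, at chr1:36587039-36588149, was the most variable member. In the LV it stood at 8.42, 18.1 and 12.6 FPKM at P0, 28.1, 26.2 and 36.3 at P3, and 67.2, 84.8 and 86.6 at P7. In the RV it stood at 9.38, 20.1 and 13.4, then 20.4, 16.2 and 16.8, then 41.5 and 67.2. The RV libraries of P3 overlapped those of P0, whereas the LV groups were apart at each age. P7 was 6.10-fold P0 in the LV (log2 change 2.66, SE 0.26, limma adjusted p = 1.8e-06) and 3.80-fold in the RV (1.95, SE 0.29, adjusted p = 0.0004). From P0 to P3 the change was called in the LV (1.26, limma adjusted p = 0.0128) and not in the RV (0.37, adjusted p = 0.563). From P3 to P7 the changes were 1.40 (limma adjusted p = 0.0116) and 1.57 (adjusted p = 0.0130). The LV step lost its call without LV P3 replicate 1 or without LV P7 replicate 2 or 3 (adjusted p of 0.0530 to 0.0685), and the RV step without RV P3 replicate 2 (0.0558) or RV P7 replicate 2 (0.168).

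The rank 53 row, chr11:31445793-31449651, rose from P0 to P3 in both ventricles and from P3 to P7 in the LV. It measured 5.84, 12.4 and 6.73 FPKM in the LV at P0, 22.7, 21.1 and 23.1 at P3, and 44.4, 39.6 and 43.4 at P7. RV values were 6.57, 13.5 and 9.29, then 21.8, 20.5 and 21.5, then 34.5 and 32.8. No 2 ages overlapped in either ventricle. The log2 changes for P7 against P0 were 2.42 (SE 0.23, limma adjusted p = 1.2e-06) in the LV and 1.83 (SE 0.25, adjusted p = 1.7e-04) in the RV. The LV step from P3 to P7, 0.93 with an adjusted p of 0.0498, was at the edge of the test, which it no longer passed when any 1 of 13 libraries was left out (adjusted p of 0.0531 to 0.158), and the RV step of 0.66 did not pass (adjusted p = 0.315).

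The Gm43197 row (rank 38, chr6:3286772-3289354) and the rank 52 row (chr7:55382007-55387550) also rose in both ventricles and were highest at P3. Group means of the Gm43197 row were 13.9 ± 1.21, 41.2 ± 3.42 and 29.5 ± 1.21 FPKM (SD, n = 3 each) in the LV at P0, P3 and P7. Those of the rank 52 row were 12.3 ± 2.86, 32.2 ± 3.78 and 25.4 ± 0.643 (n = 3 each). The P7 against P0 changes of the 2 rows were 1.08 and 1.07 in the LV and 1.17 and 0.97 in the RV on the log2 scale, all called.

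**Figure D3:**
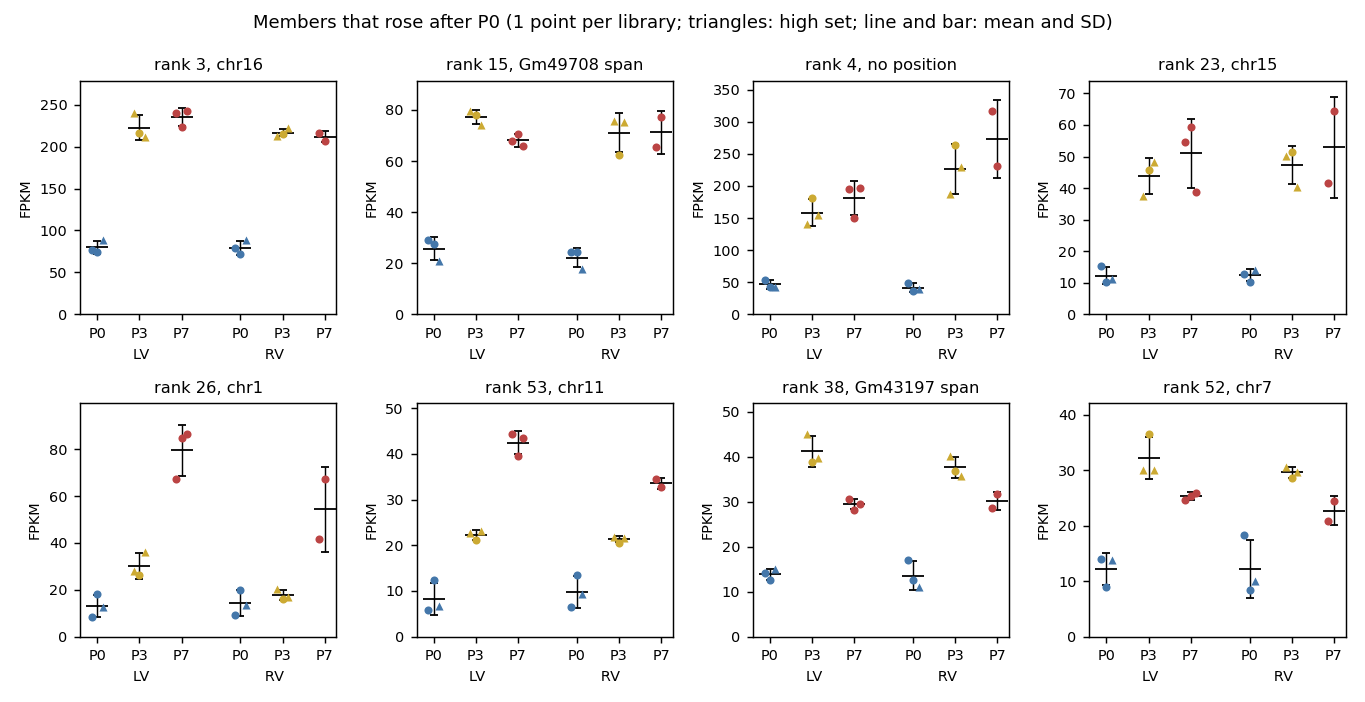
FPKM per library (points), group mean and SD (line and bar) of 8 members that rose between P0 and P7 in both ventricles, by age and ventricle, with triangles for high-set libraries. In all 8 panels the P7 libraries lie above every P0 library of the same ventricle, and ranks 38 and 52 have their highest group mean at P3.

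The other members that rose from P0 to P7 were called in 1 ventricle only, which does not show that the ventricles differ. In the LV these were ranks 8, 20, 24, 32, 62 and 64, with log2 changes of 0.59 to 1.005. Ranks 62 and 64 reached the threshold only through later ages, so their rises are not independent of the choice. The pair of ranks 24 and 32 are neighbours on chromosome 5, 1.28 kb apart, and rose by 0.60 and 0.59. In the RV, rank 12 was called with 0.52.

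Rank 8, at chr6:145130797-145136501, gave 52.1, 92.3 and 63.3 FPKM in the LV at P0, 105, 106 and 113 at P3, and 117, 145 and 146 at P7. Its RV libraries gave 77.6, 105 and 96.0, then 83.0, 121 and 107, then 102 and 211. LV P7 libraries were above all LV P0 libraries, with a log2 change of 1.005 (SE 0.22, limma adjusted p = 0.0059). The RV libraries at P7 lay far apart, and the RV change of 0.67 did not pass (limma adjusted p = 0.132; 0.94, adjusted p = 0.0408, with median scaling).

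The rank 20 row, chr1:182354643-182354929, rose late. LV libraries stood at 30.6, 35.0 and 30.3 FPKM at P0, 38.4, 29.0 and 41.3 at P3, and 58.5, 50.03 and 58.8 at P7. RV libraries stood at 29.7, 30.003 and 37.5, then 35.1, 32.9 and 31.5, then 47.03 and 43.8. P7 lay above both earlier ages in each ventricle. The LV changes were 0.80 against P0 (SE 0.13, limma adjusted p = 5.5e-04) and 0.63 against P3 (SE 0.13, adjusted p = 0.0210), and the RV change of 0.49 against P0 had an adjusted p of 0.0567 (0.77, adjusted p = 0.0048, with median scaling). The LV step from P3 lost its call without LV P3 replicate 1 or 2 or LV P7 replicate 1 or 3 (limma adjusted p of 0.0514 to 0.0934).

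Among the members that fell, rank 28, at chr7:6656616-6658546, fell furthest in the LV. It measured 48.0, 39.4 and 51.2 FPKM in the LV at P0, 32.1, 22.3 and 31.3 at P3, and 17.05, 17.6 and 19.7 at P7. RV libraries gave 43.4, 37.5 and 50.1, then 38.8, 38.2 and 40.2, then 17.5 and 19.99. In the LV the 3 ages were apart, while in the RV P3 overlapped P0 and P7 was apart. All P7 libraries were under 20 FPKM, so the row entered through earlier ages, and its falls are not independent of the choice. The log2 changes for P7 against P0 were -1.34 (SE 0.15, limma adjusted p = 5.7e-06) and -1.21 (SE 0.16, adjusted p = 1.2e-04), and -1.01 and -0.93 with median scaling, both still called. It was the only member called lower at P3 in the LV (-0.70, limma adjusted p = 0.0126), a call lost without LV P0 replicate 1 or 3 or LV P3 replicate 2 (adjusted p of 0.0630 to 0.0719).

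The rank 19 row, chr13:67001552-67002330, gave 44.5, 56.2 and 65.9 FPKM in the LV at P0, 44.3, 44.9 and 44.7 at P3, and 29.7, 31.4 and 24.8 at P7. In the RV it gave 53.5, 60.4 and 58.1, then 39.3, 62.7 and 37.6, then 20.3 and 29.2. All P7 libraries were below all earlier ones. The log2 changes for P7 against P0 were -0.94 (SE 0.18, limma adjusted p = 0.0020) in the LV and -1.23 (SE 0.20, adjusted p = 7.7e-04) in the RV. With median scaling the LV change of -0.62 no longer passed (adjusted p = 0.0691) and the RV change of -0.96 did (adjusted p = 0.0173).

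Rank 11, at chr8:63990229-63991987, stood at 101, 94.5 and 115 FPKM in the LV at P0, 112, 69.2 and 90.0 at P3, and 60.5, 53.4 and 51.8 at P7. RV values were 84.9, 94.5 and 108, then 92.5, 91.5 and 89.8, then 60.2 and 63.8. P7 was below P0 and P3 throughout. The log2 changes were -0.90 (SE 0.14, limma adjusted p = 2.0e-04) and -0.62 (SE 0.15, adjusted p = 0.0193), or -0.58 (adjusted p = 0.0026) and -0.34 (adjusted p = 0.146) with median scaling.

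NONMMUT063778, the second most abundant row, has no position. It gave 300.0, 298 and 273 FPKM in the LV at P0, 257, 183 and 274 at P3, and 175, 186 and 195 at P7. The RV libraries gave 315, 235 and 271, then 203, 186 and 246, then 124 and 204. P7 lay below P0 in both ventricles and overlapped P3. The log2 changes were -0.65 (SE 0.16, limma adjusted p = 0.0144) and -0.77 (SE 0.18, adjusted p = 0.0158). Neither passed with median scaling (-0.32, adjusted p = 0.142, and -0.50, adjusted p = 0.0539), nor did the RV change without RV P7 replicate 1 (-0.41, adjusted p = 0.398) or RV P0 replicate 1 (-0.67, adjusted p = 0.0681).

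NONMMUT0047, rank 9 and also without a position, fell in the LV. Its LV libraries stood at 106, 146 and 117 FPKM at P0, 118, 131 and 129.9 at P3, and 84.2, 72.5 and 69.8 at P7. Its RV libraries stood at 91.4, 97.4 and 60.6, then 129.7, 119 and 122, then 85.8 and 94.0. At P0 every LV library was above every RV library, and at P7 every LV library was below. The P7 against P0 change was -0.70 in the LV (SE 0.14, limma adjusted p = 0.0041; -0.37, adjusted p = 0.217, with median scaling) and 0.14 in the RV (SE 0.16). The difference of these changes, 0.84 (95% interval 0.38 to 1.29), did not pass (limma adjusted p = 1). From P0 to P3 it rose by 0.60 in the RV (adjusted p = 0.0285; 0.63, adjusted p = 0.0589, with median scaling).

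Rank 57, at chr11:90048998-90113256, was highest at P3 in mean and lowest at P7. It measured 26.1, 27.7 and 19.5 FPKM in the LV at P0, 30.6, 25.9 and 25.9 at P3, and 16.8, 11.95 and 15.2 at P7. RV values were 25.0, 18.1 and 16.9, then 26.4, 24.5 and 26.2, then 14.6 and 13.8. P7 was below all earlier libraries in each ventricle. All P7 libraries were under 20 FPKM, so the row reached the threshold only through earlier ages, and its falls are not independent of the choice. From P3 to P7 the log2 changes were -0.91 (SE 0.16, limma adjusted p = 0.0109) in the LV and -0.85 (SE 0.18, adjusted p = 0.0302) in the RV, and neither passed with median scaling (-0.66, adjusted p = 0.0828, and -0.61, adjusted p = 0.278). The LV step lost its call without LV P3 replicate 1 (limma adjusted p = 0.0685) or LV P7 replicate 2 (0.0558). For P7 against P0 the changes were -0.73 in the LV (adjusted p = 0.0068; -0.40, adjusted p = 0.183, with median scaling) and -0.47 in the RV (adjusted p = 0.152; -0.20 with median scaling).

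The rank 17 row, chr6:127075184-127076427, fell in the RV. Its RV libraries stood at 54.2, 50.4 and 63.1 FPKM at P0, 37.0, 40.4 and 38.9 at P3, and 32.0 and 33.8 at P7. LV libraries gave 54.5, 54.0 and 61.8, then 56.9, 38.4 and 51.4, then 51.4, 53.2 and 47.7. The RV ages did not overlap, and at P7 both RV libraries were below the 3 LV libraries. The RV changes from P0 were -0.52 at P3 (SE 0.13, limma adjusted p = 0.0305) and -0.76 at P7 (SE 0.14, adjusted p = 0.0029), the latter -0.48 with median scaling (adjusted p = 0.0331). When libraries were scaled to an equal sum of other rows, the P7 change of -0.39 no longer passed (limma adjusted p = 0.0609). It also did not pass without the variance trend (limma adjusted p = 0.110). For the LV the P7 against P0 change was -0.16 (0.17 with median scaling), and the difference between the ventricles' changes did not pass (-0.60, 95% interval -0.996 to -0.20, limma adjusted p = 1). The RV call at P7 was lost without RV P7 replicate 1 (-0.72, adjusted p = 0.0627), and that at P3 without any 1 of 5 RV libraries (0.0666 to 0.143).

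The rank 13 row, chr7:129231972-129236606, also fell in the RV. Its RV libraries gave 62.8, 82.9 and 93.6 FPKM at P0, 54.2, 59.3 and 55.7 at P3, and 44.8 and 52.4 at P7. LV libraries gave 58.0, 72.3 and 75.8, then 60.1, 62.9 and 56.5, then 58.7, 53.8 and 44.8. P7 and P0 were apart in the RV and overlapped in the LV. The RV change was -0.70 (SE 0.16, limma adjusted p = 0.0107), or -0.42 with median scaling (adjusted p = 0.245), and without RV P7 replicate 1 it was -0.58 (adjusted p = 0.19) and without RV P0 replicate 3 -0.57 (adjusted p = 0.053).

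The remaining calls of lower levels at P7 were smaller. In the LV they were ranks 10, 21, 27, 46, 49 and 50, with changes of -0.66 to -0.35, and in the RV ranks 5, 37 and 49, with -0.67 to -0.58. None of these 9 calls passed with median scaling, and rank 27 (-0.35 in the LV) turned to 0.03 when libraries were scaled to an equal sum of all other nuclear rows.

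**Figure D4:**
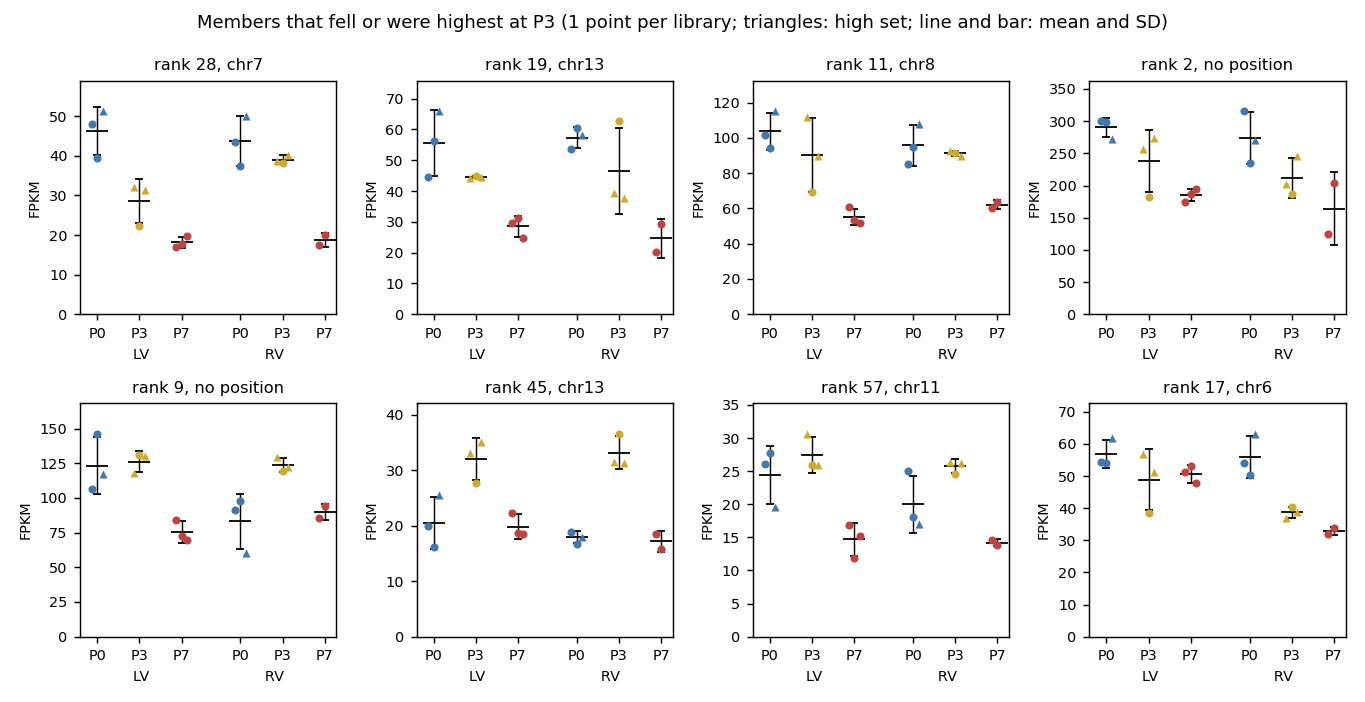
FPKM per library (points), group mean and SD (line and bar) of 8 members that were called lower in at least 1 comparison, by age and ventricle, with triangles for high-set libraries. Ranks 28, 19, 11, 2, 57 and 17 have all P7 libraries below all P0 libraries in both ventricles, and rank 45 has its P3 libraries above those of P0 and P7.

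At P3 against P0, 13 members were called in the LV, 12 higher and 1 lower, where 1.89% of all rows were called (0.966% higher and 0.921% lower). In the RV 16 were called, 12 higher and 4 lower, where 2.46% of all rows were called (1.44% higher and 1.03% lower). Of the band of 10 to 20 FPKM, 14.8% were called in the LV (3.41% higher and 11.4% lower), beside 20.3% of the members. In the RV 17.05% of the band were called (4.55% higher and 12.5% lower), beside 25% of the members. Of the 12 rises in each ventricle, 11 were shared, a share not counted over all rows. Ranks 3, 4, 15, 23, 38, 52 and 53 made up 7 of them, with log2 changes of 1.41 to 1.84 in the LV and 1.17 to 2.44 in the RV. The other 4 were ranks 12, 33, 45 and 64, with 0.64 to 0.67 in the LV and 0.69 to 0.88 in the RV. High-set libraries were present at P0 and P3 in unequal number, 1 of 3 against 2 of 3. Within the low set alone, where P3 keeps 1 library a ventricle, 5 of the 13 LV calls and 7 of the 16 RV calls were made again. Without LV P0 replicate 1, 8 members were called in the LV.

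Rank 45, at chr13:29040913-29043540, was high at P3 alone. The row reached a mean of 20 FPKM only with its P3 libraries, so its changes to and from P3 are not independent of the choice. It stood at 19.9, 16.1 and 25.5 FPKM in the LV at P0, 33.2, 27.7 and 35.1 at P3, and 22.3, 18.6 and 18.4 at P7. RV libraries gave 18.9, 16.7 and 18.0, then 31.5, 36.5 and 31.3, then 18.5 and 15.8. P3 did not overlap with either other age in either ventricle. The rise to P3 was 0.66 in the LV (SE 0.15, limma adjusted p = 0.0261) and 0.88 in the RV (SE 0.15, adjusted p = 0.0021). The change from P3 to P7 was -0.69 (limma adjusted p = 0.0278) and -0.95 (adjusted p = 0.0104), and passed in neither ventricle with median scaling (adjusted p = 0.26 and 0.121). It was also lost in the LV without any 1 of 4 libraries (0.113 to 0.135) and in the RV without any 1 of 3 (0.0553 to 0.1095).

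Rank 33 (chr16:20128179-20129289) and rank 12 (chr1:40912037-40913731) also had their highest group means at P3, and their lowest at P0. Rank 33 averaged 24.6, 38.9 and 27.4 FPKM in the LV and 21.3, 38.7 and 27.7 in the RV at P0, P3 and P7. Rank 12 averaged 65.3, 103.9 and 77.9 in the LV and 63.8, 102 and 91.2 in the RV. Their P7 against P3 changes were not called. The row with the span of a Trdn transcript averaged 34.7, 47.5 and 33.5 FPKM in the LV and 32.5, 44.3 and 28.9 in the RV, and it passed in no comparison of the values as deposited (limma adjusted p = 0.139 and 0.135 for P3 against P0). When libraries were scaled to an equal sum of other rows, its P3 against P0 changes of 0.64 and 0.54 were called (adjusted p = 0.0140 and 0.0360). This row was singled out after its values were seen.

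Of the 4 members called lower at P3 in the RV, 2 have the span of a coding gene's transcript. The Iqsec2 row (rank 16, chrX:148613507-148638547) measured 55.3, 68.5 and 56.4 FPKM in the RV at P0, 37.3, 40.5 and 35.1 at P3, and 68.9 and 50.2 at P7. LV libraries gave 65.7, 73.5 and 50.4, then 46.5, 44.4 and 42.2, then 60.5, 43.6 and 50.7. P3 was below P0 in both ventricles, with a log2 change of -0.67 in the RV (SE 0.15, limma adjusted p = 0.0180; adjusted p = 0.0974 with median scaling, and 0.0580 to 0.0929 without RV P0 replicate 2 or RV P3 replicate 1 or 3) and -0.49 in the LV (adjusted p = 0.127).

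The Mrpl42 row (rank 5, chr10:94943468-94964561) gave 166, 144 and 167 FPKM in the RV at P0, 122, 93.7 and 119 at P3, and 94.5 and 114 at P7. In the LV it gave 119, 154 and 135, then 133, 118 and 119, then 106, 117 and 96.6. The RV libraries of P3 and P7 were below those of P0, and in the LV only P7 was. Its RV changes from P0 were -0.52 at P3 (SE 0.12, limma adjusted p = 0.0214) and -0.61 at P7 (SE 0.13, adjusted p = 0.0095).

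Rank 37, at chr1:183832695-183834125, was the fourth, beside rank 17. It stood at 28.4, 37.2 and 42.7 FPKM in the RV at P0, 24.8, 23.5 and 24.6 at P3, and 21.0 and 23.9 at P7. LV libraries gave 27.6, 32.4 and 33.9, then 27.4, 23.7 and 28.2, then 22.9, 23.7 and 23.4. The RV change at P3 was -0.55 (SE 0.13, limma adjusted p = 0.0323) and lost its call when any 1 of 5 libraries was left out (adjusted p of 0.0802 to 0.165).

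From P3 to P7, 8 members were called in the LV, 3 higher and 5 lower, where 1.34% of all rows were called (0.271% higher and 1.07% lower). In the RV 5 were called, 1 higher and 4 lower, where 0.74% of all rows were called (0.226% higher and 0.514% lower). Of the band of 10 to 20 FPKM, 10.2% were called in the LV, beside 12.5% of the members, and 6.82% beside 7.81% in the RV. After median scaling, 5 LV members were called higher and 0 lower (76 and 52 of all rows), and 2 RV members higher and 1 lower (38 and 25 of all rows). Ranks 26, 28, 45 and 57 were called in both ventricles, the first higher and the others lower, and rank 19 was called lower in the RV (-0.89, limma adjusted p = 0.0402; -0.63, adjusted p = 0.565, without RV P7 replicate 1). No P7 library was in the high set, whereas 2 of 3 P3 libraries of each ventricle were. Within the low set alone, where P3 keeps 1 library a ventricle, limma called no member in this comparison. Leaving out 1 library gave counts of 0 (without LV P3 replicate 1) to 10 in the LV and 1 (without RV P3 replicate 2 or RV P7 replicate 1) to 6 in the RV.

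No member was called between the ventricles over the 3 ages (0.00903% of all rows were called), at P0 (0%), at P3 (0.00903%) or at P7 (0.00903%). At an unadjusted limma p under 0.05 there were 5, 2, 7 and 6 members, beside 765, 587, 651 and 495 of all 11079 rows. The smallest adjusted p over ages was 0.159, of rank 64 (NONMMUT050286), which averaged 12.7, 19.9 and 19.2 FPKM in the LV and 18.0, 29.1 and 26.1 in the RV at P0, P3 and P7. The difference, RV minus LV, was 0.49 on the log2 scale (95% interval 0.29 to 0.70). Only its RV means at P3 and P7 were above 20, so the levels that chose this row include that difference. No member's P7 against P0 change was called as different between the ventricles (0% of all rows), with 4 members and 454 of all rows at an unadjusted p under 0.05.

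On chromosome 17, 4 rows share 1 span of 221887 bases, that of the 45S row, and 3 of them were members. Their values differed although their positions did not, so the part of the span that each row counts is not given in the files. Rank 14, the highest, stood at 48.8, 42.5 and 59.8 FPKM in the LV at P0, 25.6, 49.1 and 70.6 at P3, and 85.8, 64.1 and 36.6 at P7. Its RV libraries gave 53.1, 49.1 and 21.3, then 72.2, 83.0 and 74.3, then 60.1 and 51.9. The LV groups overlapped, and in the RV the P3 libraries were above those of P0. This RV difference of 0.998 (95% interval 0.28 to 1.72) was the largest among members never called (limma adjusted p = 0.156).

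Rank 51 on the same span split the libraries otherwise. It gave 27.8, 27.7 and 34.6 FPKM in the LV at P0, 31.6, 10.4 and 31.3 at P3, and 17.2, 17.4 and 12.8 at P7. Its RV libraries gave 14.2, 19.8 and 37.9, then 35.7, 8.21 and 28.9, then 11.7 and 15.1. The 6 high-set libraries stood at 28.9 to 37.9 and the 11 low-set libraries at 8.21 to 27.8, without overlap. Its P7 against P0 change in the LV was -0.93 (95% interval -1.97 to 0.11, limma adjusted p = 0.24), -0.60 with median scaling and -0.51 with the library set as a term. Within the low set alone it was -0.82 and called (adjusted p = 0.0235), as was P3 against P0 in the LV (-1.41, adjusted p = 0.0453), where P3 keeps 1 library. The RV change was -0.72, or -0.30 with the set as a term.

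Rank 60, the third of these rows, gave 34.4, 21.3 and 33.9 FPKM in the LV at P0, 22.2, 13.2 and 28.1 at P3, and 16.9, 16.2 and 16.9 at P7. In the RV it gave 27.6, 15.8 and 29.0, then 21.6, 12.99 and 25.4, then 11.8 and 11.9. P7 was below P0 in the RV and in the LV, with changes of -0.98 (95% interval -1.62 to -0.33, limma adjusted p = 0.073) and -0.80 (-1.38 to -0.23, adjusted p = 0.0656). High-set libraries ran from 21.6 to 33.9 and low-set libraries from 11.8 to 34.4. With median scaling the changes were -0.70 and -0.48, and with the library set as a term -0.76 and -0.59. None of the 3 rows was called in any comparison over all libraries of the values as deposited.

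**Figure D5:**
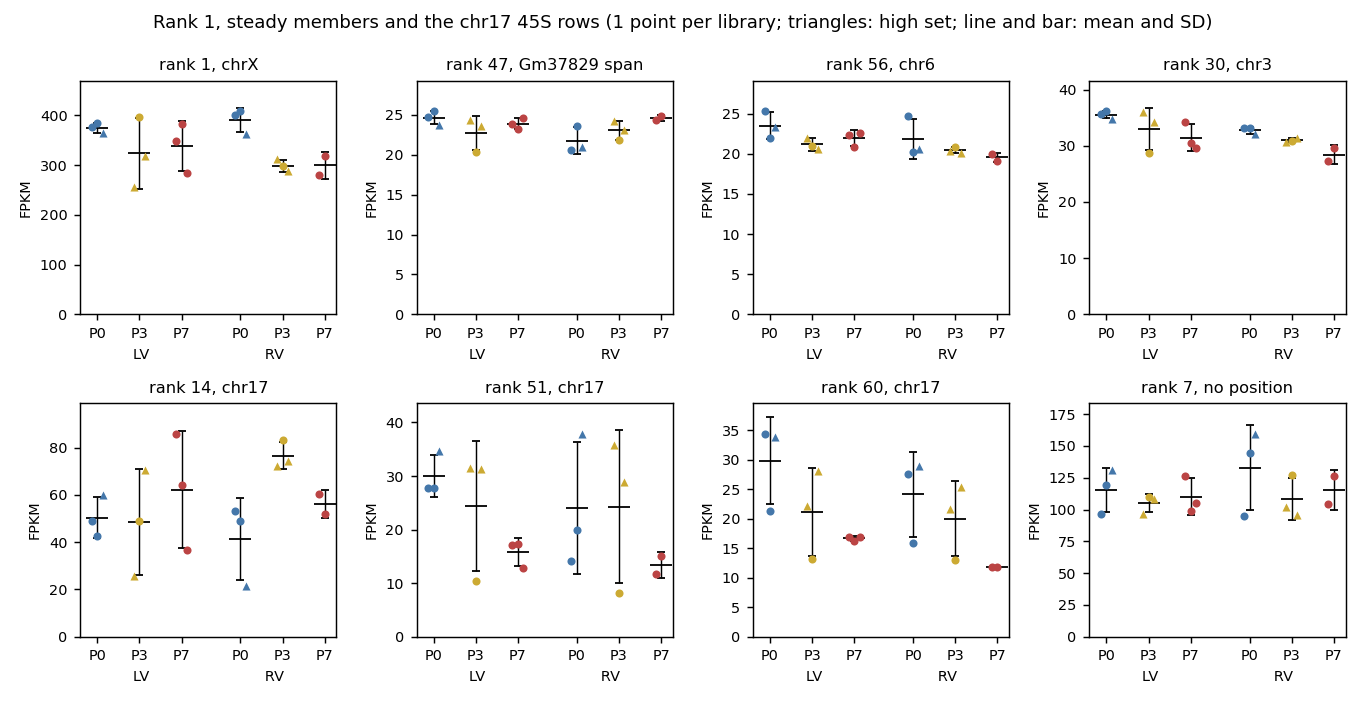
FPKM per library (points), group mean and SD (line and bar) of rank 1, rank 7, the 3 steadiest members (ranks 47, 56 and 30) and the 3 chromosome 17 rows (ranks 14, 51 and 60), with triangles for high-set libraries. Ranks 47, 56 and 30 have a highest library at most 1.32-fold the lowest, while for rank 51 every triangle lies above every circle.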

How the data were processed

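For every library the authors deposited a file of noncoding rows with positions and FPKM values; the unit was inferred, since the steps in the values fit fragments divided by row length. Which annotation, counter and scaling the authors used is not stated in the labels or files. Alignment used STAR 2.4.0j against mm10 per the submitters' processing notes, whereas the positions fit mm9 and were not converted.

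Log2(FPKM + 0.1) of rows with at least 0.1 in 2 libraries was tested with limma 3.58.1 in R 4.3.3 (trend, robust) over 6 groups, with Benjamini-Hochberg adjustment over all rows, after the fit was tested on simulated data. Values are given in full for the 45S rows, the 8 highest members, the largest called changes per comparison and direction, and the lowest and highest coefficients of variation; further rows were added after their values were seen. The rule and lists were chosen with earlier results of these data known, and the library sets and span matches after the data were examined. P-values measure the spread between these libraries. Alternatives covered the pseudocount, filter, scaling, variance trend, groups fitted, replicate block, library set and single libraries.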

Additional observations from a re-analysis of the deposited data

How the results depend on the processing

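The row set was sensitive to the threshold: 32 rows averaged at least 30 FPKM, and leaving out 1 library gave 63 to 66 members. Without the variance trend the members called were 13 (LV) and 9 (RV) for P7 against P0, 7 and 6 for P3 against P0, and 0 and 0 for P7 against P3. With only the groups compared in the fit, RV P7 against P0 gave 11. Without a filter on low values RV P3 against P0 gave 10, and P7 against P3 gave 3 in the LV and 3 in the RV. Either rescaling, to an equal median or an equal sum of other rows, gave 5 (LV) and 3 (RV) for P7 against P3. With the library set as a term, LV P7 against P3 gave 4, also when joined with the replicate block. In the low set alone, P3 against P0 gave 6 and 7, and P7 against P3 gave 0 and 0, with fewer libraries in the fit. The cause of these shifts was not tested.

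Leaving out 1 library gave 19 to 28 (LV) and 10 to 21 (RV) for P7 against P0, 8 to 13 and 11 to 17 for P3 against P0, and 0 to 10 and 1 to 6 for P7 against P3. The 10 for P7 against P0 in the RV came without RV P7 replicate 1. Between the ventricles it gave 0 to 0. Of 40 named changes, 20 kept their call under every alternative, and none of 1170 alternatives reversed one.

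Same-numbered LV and RV libraries correlated by 0.045 to 0.172 in their deviations (3 of 8 pairs over 0.1), short of the over 0.1 required of every pair, and the labels name no shared animal, so the numbers were not taken as pairs. As a hint from the data, in each of the 8 pairs the LV library correlated best with the RV library of its own number (other numbers at most 0.030). LV P7 replicate 3 had no RV library of its number. At P7 the 2 RV libraries deviate from their mean in opposite directions by construction, so the other number adds nothing there. The consensus correlation was 0.159. With the replicate block the counts were 27, 18, 13, 16, 8 and 5 for the 6 age comparisons and 0 between ventricles.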
